A study of Mus musculus with 4 samples.

Results

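The oxidative phosphorylation genes were read here as 89 of the 3624 genes in the count table. Their symbols start with Nduf, Uqcr, Atp5, Cox4, Cox5, Cox6, Cox7, Cox8 or mt-, and Sdha, Sdhb, Sdhc and Sdhd were added and Cox4i2 and Cox6a2 left out. Of these, 79 are encoded in the nucleus (36 complex I subunits, 4 complex I assembly factors, 4 complex II, 8 complex III, 12 complex IV and 15 complex V genes) and 10 on the mitochondrial chromosome (mt-Nd1, mt-Nd2, mt-Nd3, mt-Nd4, mt-Nd5, mt-Cytb, mt-Co1, mt-Co2, mt-Co3 and mt-Atp6). The cells were progenitors sorted as Lin-Sca-cKit+Cd34+ from the fetal liver of C57Bl/6J mouse embryos at E14.5 and profiled by droplet single-cell RNA sequencing. Wild-type embryos gave libraries F and I, and embryos homozygous for the deletion of a distal enhancer of Gata2 (Gata2-77-/-) gave libraries A and B. The deletion is in the germline of the whole embryo, so the cells around the progenitors carry it as well, and no other allele or treatment is labelled in either group. Gata2, the transcription factor gene that the enhancer serves, was at 26.3 and 23.2 CPM (UMI counts per 1000000 UMIs of the panel) in the wild-type libraries and at 7.48 and 6.73 CPM in the enhancer-deleted ones.

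Oxidative phosphorylation is carried out by the protein complexes I to V of the inner mitochondrial membrane. Complexes I to IV pass electrons from NADH and succinate to oxygen, complexes I, III and IV pump protons, and complex V lets the protons flow back to make ATP. Complexes I, III, IV and V are assembled from subunits of both genomes. The mitochondrial chromosome supplies a few membrane-embedded core subunits and its own polymerase transcribes them, while all other subunits are transcribed in the nucleus, translated in the cytosol and imported. Blood stem and progenitor cells are known to differ from their maturing progeny in how far they rely on this pathway.

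The panel held 9960 cells, 3042 and 1938 in the wild-type libraries and 2235 and 2745 in the enhancer-deleted ones. The wild-type libraries were deeper, with a median of 12826 and 17438 UMIs per cell against 7492 and 7087, so depth and genotype cannot be told apart in these libraries. Cells were clustered without the members and without ribosomal protein genes, and each of the 14 clusters is treated as a state. Clusters that took no marker name are called by their leading gene. Both HSPC-like clusters (haematopoietic stem and progenitor cell markers such as Hlf, Meis1, Mycn and Hoxa9), one led by Mzb1 with 1290 cells and one led by Socs2 with 622 cells, had 9 HSPC markers at 2-fold or more. The Fcgr1-led and Lgals3-led monocyte-like clusters had 591 and 626 cells, the Ly6c2-led monocyte-like cluster, which also carried 3 neutrophil markers, had 678, and the neutrophil-like cluster, which also carried the eosinophil gene Prg3, had 1295. Of the gate's own genes, Kit had a UMI in 34% and Cd34 in 78% of cells, and Cd34 was higher in the enhancer-deleted libraries (186 and 210 against 306 and 333 CPM). The neutrophil-like cells, the Car1-led cluster (Gata1, Klf1 and Car1 with mast-cell genes) and the globin-led erythroid-like cells came almost wholly from wild-type libraries, so those states were compared there only.

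Summed over all cells, nuclear members took 3.61%, 3.85%, 3.94% and 3.71% of UMIs in libraries F, I, A and B, and mt- members took 3.26%, 3.07%, 3.30% and 3.35%. The nuclear shares of the genotypes overlapped, and the mt- shares of both enhancer-deleted libraries lay just above those of the wild-type ones. Sums over all cells mix the states, so a change in the share of a state and a change within its cells cannot be told apart in them. The members were well detected. In libraries F, I, A and B, Cox4i1, a complex IV subunit that joins early, was at 1844, 1818, 2122 and 2123 CPM with a UMI in 99.8% of cells. Ndufaf6, a complex I assembly factor near the lower end, was at 38.2, 44.0, 43.6 and 55.6 CPM with a UMI in 34.9% of cells. Between states the sums moved apart. The mt- members took 4.44%, 4.80%, 4.36% and 4.67% of UMIs in the Socs2-led HSPC-like cells against 3.08%, 2.95%, 2.92% and 3.10% in the Mzb1-led HSPC-like cells, with no overlap. The nuclear members took 2.93%, 3.06%, 3.42% and 3.16% against 3.62%, 3.89%, 3.97% and 3.75%, again with no overlap and in the other direction. Taken over the UMIs of genes other than ribosomal protein and mt- genes, the nuclear shares overlapped, at 5.76%, 6.07%, 6.49% and 5.62% against 6.17%, 6.49%, 6.67% and 6.05%, and were lower in the Socs2-led cells within each library. The ratio of mt- to nuclear UMIs was 1.51, 1.57, 1.28 and 1.48 in the Socs2-led cells and 0.85, 0.76, 0.74 and 0.83 in the Mzb1-led cells.

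**Figure D1:**
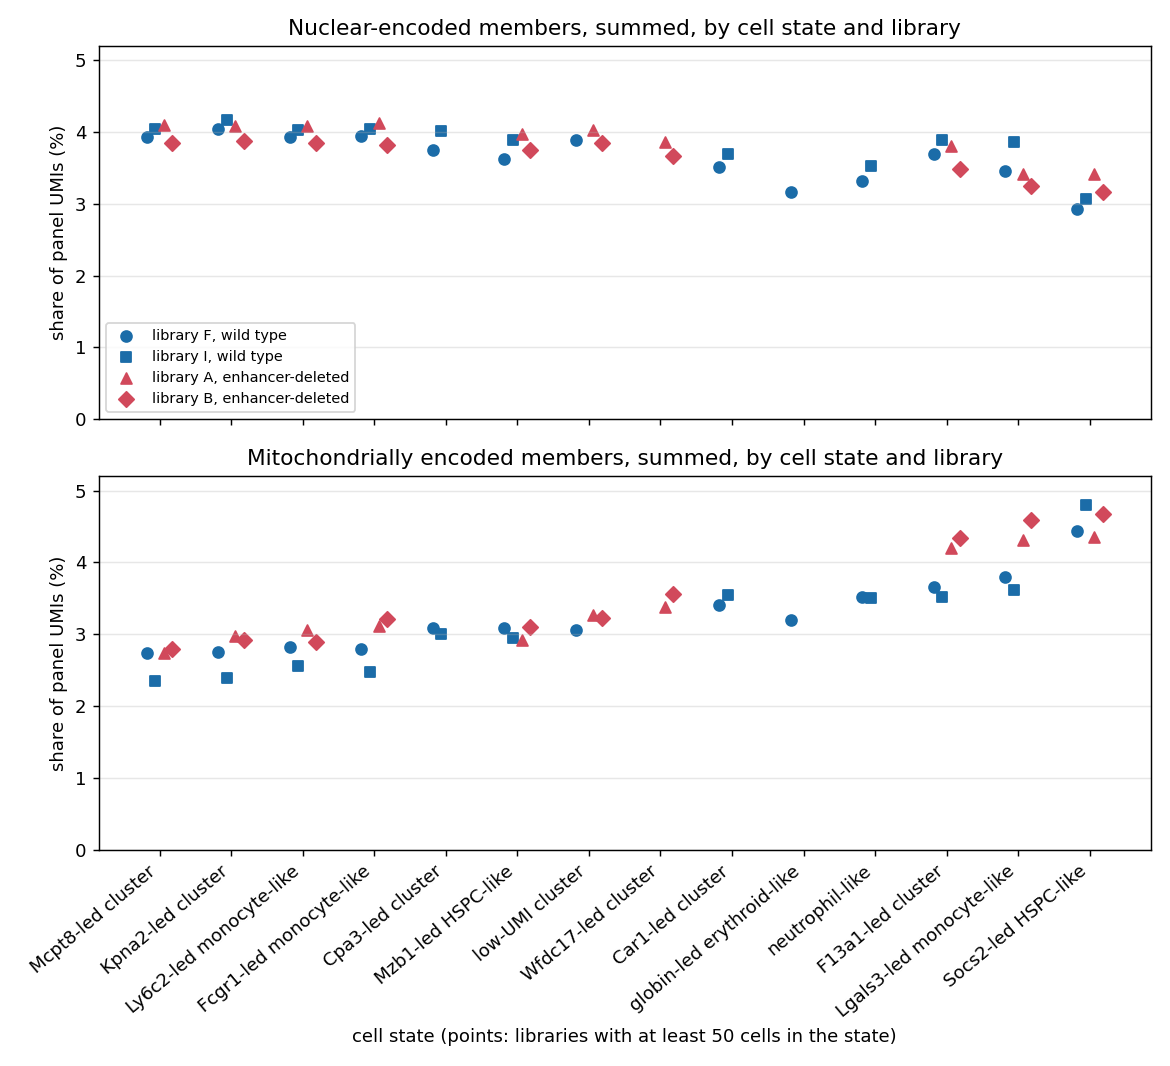
Share of panel UMIs (y, percent) taken by the nuclear members (upper panel) and the mt- members (lower panel) in each cell state (x, ordered by the ratio of mt- to nuclear UMIs); each point is a library with at least 50 cells in that state, blue for wild type and red for enhancer-deleted. The mt- share was highest in the Socs2-led HSPC-like cells (4.36% to 4.80%), where the nuclear share was 2.93% to 3.42%.

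The genes that carry this contrast include Uqcrc1 and Ndufa9, which were lower in the Socs2-led cells, and Atp5g2 and Cox8a, which were higher. Their promoters (from 250 bases before to 50 bases after the gene start, RefSeq, GRCm38.p6) are printed to show genes of both directions side by side. In them, capitals mark matches, on either strand, to the letters searched. These were GCATGCGC (from the NRF1 motif), AAGATGGCG (from the YY1 motif), CCGGAAGTG (from the ETS motif) and CCAAT. Uqcrc1 lies at chr9:108936398-108936697 on the plus strand, and Ndufa9 at chr6:126849095-126849394, Atp5g2 at chr15:102670998-102671297 and Cox8a at chr19:7217567-7217866 on the minus strand.
Uqcrc1: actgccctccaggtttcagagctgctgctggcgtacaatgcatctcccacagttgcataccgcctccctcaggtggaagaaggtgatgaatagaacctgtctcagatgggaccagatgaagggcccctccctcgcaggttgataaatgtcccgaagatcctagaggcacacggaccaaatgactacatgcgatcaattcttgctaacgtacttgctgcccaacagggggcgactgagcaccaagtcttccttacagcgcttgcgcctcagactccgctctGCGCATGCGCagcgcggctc
Ndufa9: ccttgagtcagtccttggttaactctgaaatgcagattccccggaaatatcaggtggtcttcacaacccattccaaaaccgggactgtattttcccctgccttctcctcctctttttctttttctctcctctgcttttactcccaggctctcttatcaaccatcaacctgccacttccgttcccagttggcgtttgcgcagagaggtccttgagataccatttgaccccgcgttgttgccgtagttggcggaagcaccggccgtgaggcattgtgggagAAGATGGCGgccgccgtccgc
Atp5g2: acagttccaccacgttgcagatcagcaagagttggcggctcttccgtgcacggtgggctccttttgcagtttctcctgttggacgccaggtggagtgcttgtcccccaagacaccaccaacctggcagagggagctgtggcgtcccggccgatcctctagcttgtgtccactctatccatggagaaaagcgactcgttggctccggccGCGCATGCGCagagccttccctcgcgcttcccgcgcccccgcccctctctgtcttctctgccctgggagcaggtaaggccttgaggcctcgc
Cox8a: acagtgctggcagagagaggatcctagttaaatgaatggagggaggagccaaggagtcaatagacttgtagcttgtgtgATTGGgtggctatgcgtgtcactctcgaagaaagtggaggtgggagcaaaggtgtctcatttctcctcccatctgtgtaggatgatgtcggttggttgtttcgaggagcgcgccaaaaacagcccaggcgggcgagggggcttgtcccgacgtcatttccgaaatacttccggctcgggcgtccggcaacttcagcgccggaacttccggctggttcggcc

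A promoter was matched for 68 of the 79 nuclear members, and 11, among them Uqcrc2, Cox4i1 and Atp5a1, had none. The NRF1 letters were in 11 of the 68 (16.2%), against 6.22% of the other panel genes' promoters and 2.8% of all 27025 promoters. The YY1 letters were in 6 members, Atp5j2, Ndufa9, Ndufc1, Ndufs4, Ndufs6 and Ndufs7 (8.82%, against 4.48% of the other panel genes' promoters and 1.49% of all). The ETS letters were in Ndufs3 and Uqcrh (2.94%, against 5.77% and 2.06%), and CCAAT was in 42.6% of the members' promoters, 40.3% of the other panel genes' and 37.9% of all. Of the 11 genes with the NRF1 letters, Uqcrc1, Sdhb, Ndufa8 and Atp5l were lower in the Socs2-led cells and Atp5g2, Atp5k, Cox6a1, Uqcr11 and Ndufa6 were higher, while Ndufa11 and Ndufaf4 did not pass edgeR's test. The letters were thus found in genes of both directions. The motifs had been chosen after the counts were read, and a match is a description of letters only.

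All 10 mt- genes rose between the Mzb1-led and the Socs2-led HSPC-like cells, and the nuclear members went both ways. The test was edgeR's quasi-likelihood test on the summed counts of each library and state, with library as a block and Benjamini-Hochberg adjustment over all genes tested; a gene passed at an adjusted p of at most 0.05. At that threshold 68.0% of all 3582 genes tested differed between these states, 35.5% higher and 32.5% lower in the Socs2-led cells. The clusters had been formed from 1000 variable genes, so the calls over all genes include genes that formed them, and the members were not among those 1000. Of the 79 nuclear members 20 rose, 40 fell and 19 did not pass, with a median log2 fold change of -0.13, beside 0.03 over all genes. Of the 10 mt- genes, all rose, with a median of 0.72 and a range of 0.64 to 0.79.

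The mt-Nd1 gene, for a core complex I subunit, was at 3500, 3342, 3159 and 3464 CPM in the Mzb1-led cells of libraries F, I, A and B. In the Socs2-led cells it was at 5265, 5640, 5019 and 5527 CPM (log2 fold change 0.79, SE 0.07, adjusted p 2.44e-12 by edgeR). The lowest Socs2-led library lay above the highest Mzb1-led one. The mt-Co2 product carries an electron-accepting copper site of complex IV, and its gene went from 3150, 3046, 3213 and 3356 to 4572, 5046, 4858 and 5122 CPM (0.74, SE 0.06, adjusted p 1.77e-12 by edgeR). The mt-Cytb gene, for the only mitochondrially encoded subunit of complex III, went from 2991, 2839, 2856 and 3005 to 4486, 4753, 4305 and 4685 CPM (0.76, SE 0.07). Of the others, mt-Co1, the catalytic subunit of complex IV, rose by 0.64 on the log2 scale (SE 0.07) and mt-Atp6, the proton channel subunit of complex V, by 0.71 (SE 0.07). The mt-Nd3 gene, for a small subunit of complex I, differed more between libraries within a state than the other mt- genes did. It was at 193, 261, 184 and 131 CPM in the Mzb1-led cells and at 296, 421, 271 and 227 CPM in the Socs2-led cells (0.79, SE 0.07). It was higher in the Socs2-led cells of every library. The states' ranges overlap, as library B of the Socs2-led cells (227 CPM) lay below library I of the Mzb1-led cells (261 CPM).

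The nuclear core subunits of complex I went the other way. The core subunits Ndufs3, Ndufs7, Ndufs8, Ndufv1 and Ndufv2 hold the flavin and iron-sulfur clusters of complex I or shape its quinone site, and all 5 fell in the Socs2-led cells, with a median log2 fold change of -0.99. Ndufs3 was at 251, 243, 261 and 302 CPM in the Mzb1-led cells and at 90.6, 65.2, 111 and 113 CPM in the Socs2-led cells (log2 fold change -1.39, SE 0.09, adjusted p 8.28e-15 by edgeR). Ndufv1, which binds NADH, fell by 1.14 (SE 0.15) and Ndufv2 by 0.99 (SE 0.08). Ndufa9, an accessory subunit on the matrix arm, had the most negative change of all members: 130, 175, 155 and 166 CPM became 33.0, 31.9, 56.8 and 47.0 CPM (-1.81, SE 0.11, adjusted p 1.53e-15), a 3.52-fold difference with no overlap. These roles were assigned from textbook knowledge after the values had been seen, so the split is a description.

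The 30 accessory subunits of complex I were mixed: 7 rose, 15 fell and 8 did not pass, with a median of -0.15. The risers were small: Ndufa1, a membrane subunit, went from 98.8, 125, 105 and 66.7 to 104, 143, 140 and 81.9 CPM (0.37, SE 0.09), and Ndufa2 and Ndufa7 rose by 0.33 (SE 0.06) and 0.32 (SE 0.06). For Ndufa1 the spread between libraries within a state exceeds the difference between the states, and the rise is seen within each library. Of the 4 measured assembly factors, Ndufaf2, Ndufaf3 and Ndufaf6 fell, by 0.46, 0.55 and 0.65, and Ndufaf4 did not pass.

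In complex II, which has no mitochondrially encoded subunit, Sdhb, the iron-sulfur subunit, fell from 339, 373, 348 and 357 to 202, 141, 166 and 207 CPM (-0.88, SE 0.07, adjusted p 2.12e-12 by edgeR), and the libraries of both states did not overlap. Sdha, the flavoprotein subunit of the same enzyme, did not pass (0.17, SE 0.12, adjusted p 0.206). Sdhc fell by 0.21 (SE 0.07) and Sdhd did not pass, so members of one complex differed among themselves.

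Complex III held both directions as well. The large core proteins Uqcrc1 and Uqcrc2 fell: Uqcrc2 went from 226, 240, 244 and 291 to 76.2, 54.6, 83.5 and 78.6 CPM (-1.69, SE 0.10, adjusted p 5.38e-16 by edgeR). Uqcrc1 went from 280, 363, 359 and 377 to 110, 89.5, 114 and 159 CPM (-1.44, SE 0.09). The Rieske iron-sulfur protein Uqcrfs1 fell by 0.34 (SE 0.06). Of the 5 small subunits, Uqcrq, Uqcr10, Uqcr11 and Uqcrh rose and Uqcrb fell; Uqcrq went from 393, 423, 463 and 356 to 483, 554, 606 and 426 CPM (0.45, SE 0.05, adjusted p 8.48e-09).

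In complex IV, whose catalytic subunits are all mitochondrially encoded, 5 of the 12 nuclear members rose and 2 fell. Cox8a, a small subunit needed for a stable complex, went from 1118, 1186, 1131 and 972 to 1351, 1527, 1426 and 1331 CPM (0.47, SE 0.05, adjusted p 3.02e-10 by edgeR), with no overlap. Cox7a2l, which takes part in joining complexes III and IV, rose by 0.40 (SE 0.08), as did Cox6b2, an isoform best known from testis, by 0.66 (SE 0.14). Cox5a and Cox4i1, which join the complex early in its assembly, fell by 0.68 (SE 0.06) and 0.28 (SE 0.05).

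In complex V, 4 of the 5 subunits of the F1 head fell and Atp5e rose. Atp5b, the catalytic beta subunit, went from 859, 1197, 933 and 1138 to 396, 370, 364 and 557 CPM (-1.17, SE 0.10, adjusted p 1.34e-12 by edgeR), and the gamma subunit Atp5c1 fell by 1.03 (SE 0.07). Atp5e, the small epsilon subunit, went from 461, 521, 490 and 382 to 571, 673, 628 and 491 CPM (0.47, SE 0.06). The peripheral-stalk subunit Atp5f1 fell by 1.28 (SE 0.08). Of the genes for the membrane c ring, Atp5g1 and Atp5g2 rose by 0.24 (SE 0.05) and 0.18 (SE 0.05), and Atp5g3 did not pass (-0.09, SE 0.06).

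**Figure D2:**
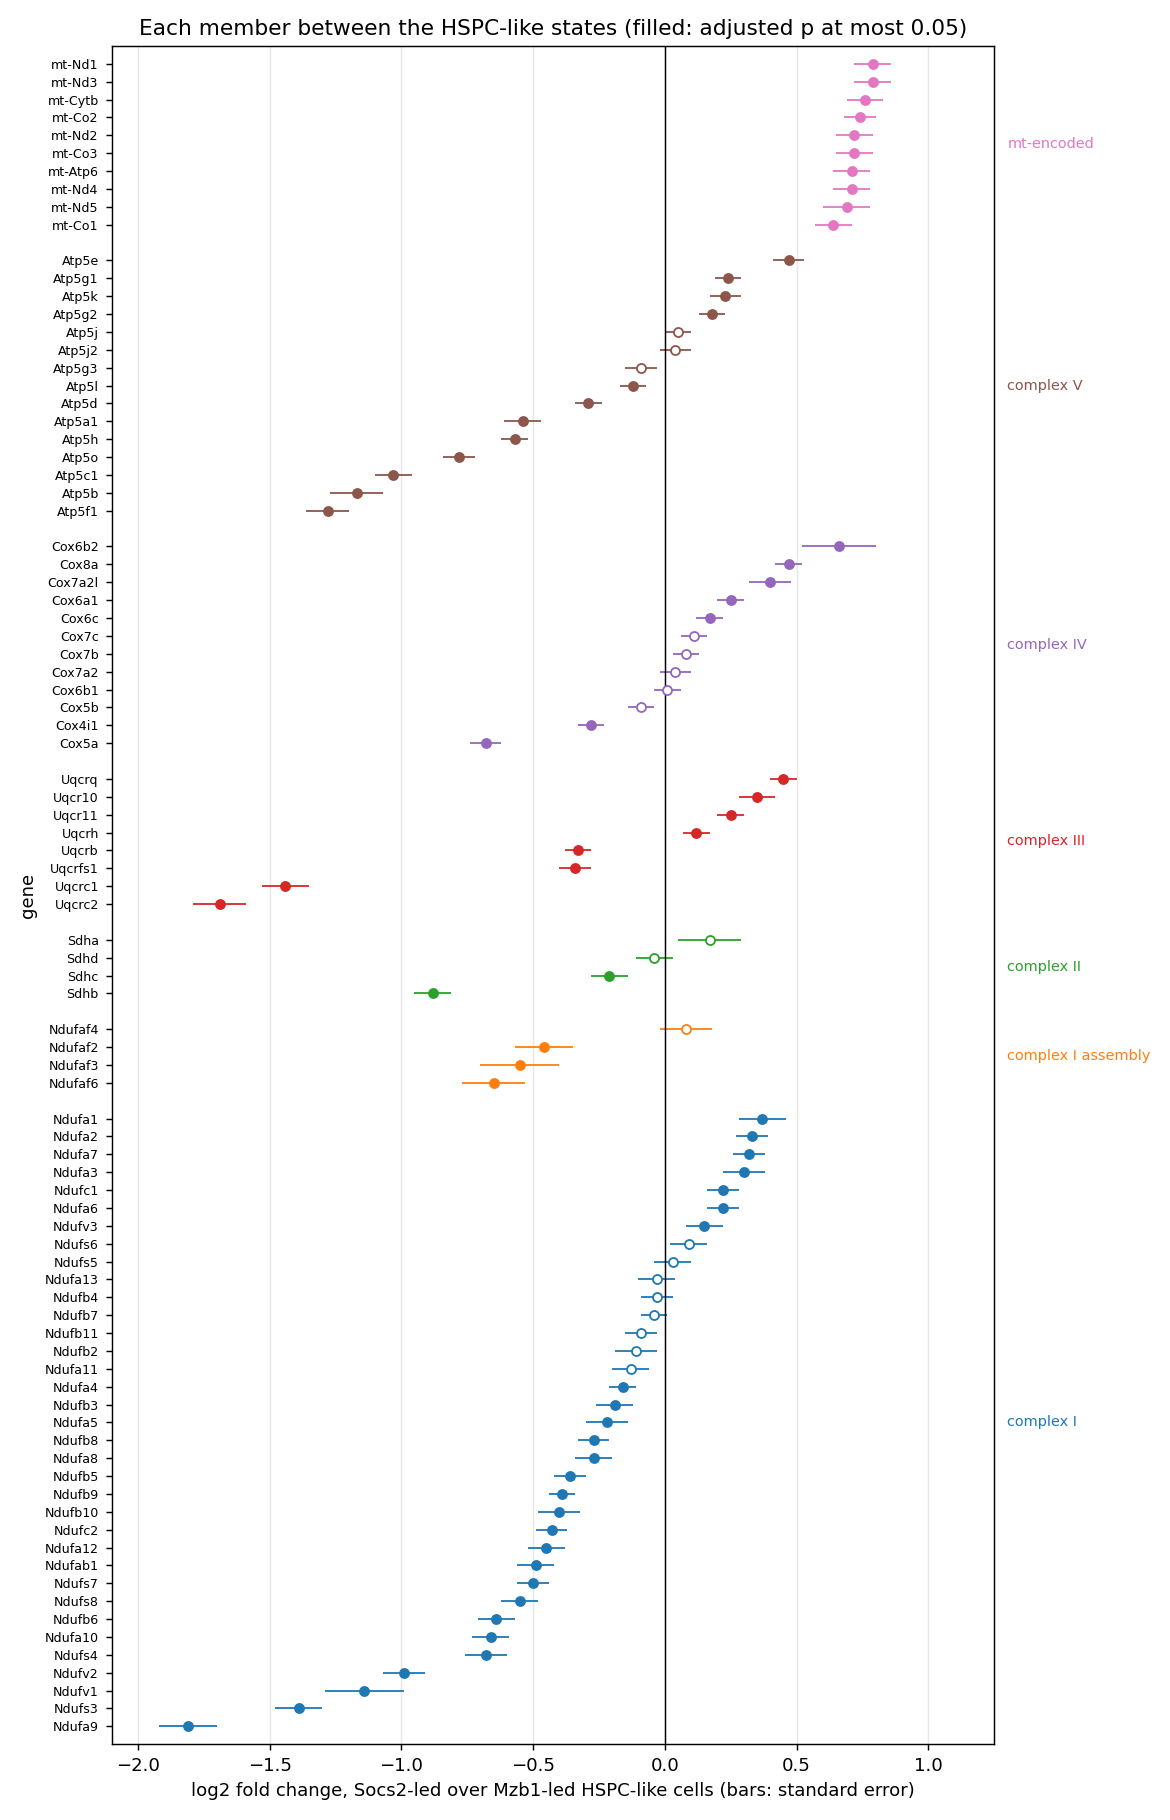
Log2 fold change of the members, 1 complex I subunit left out, in Socs2-led over Mzb1-led HSPC-like cells (x; bars are standard errors from edgeR), grouped by complex (y); filled points have an adjusted p of at most 0.05. All 10 mt- genes lie between 0.64 and 0.79, and the nuclear members range from -1.81 (Ndufa9) to 0.66 (Cox6b2).

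Several measures moved with this contrast, and their part in it was not tested. The Socs2-led cells had fewer UMIs, with library medians of 9422, 10891, 5530 and 5364 per cell against 12881, 17404, 8703 and 7971. Cytosolic ribosomal protein genes took 44.7%, 44.7%, 43.0% and 39.1% of their UMIs against 38.3%, 37.1%, 37.5% and 34.8%. As numbers of UMIs per cell, the mt- members were at a median of 416, 531, 246 and 253 in the Socs2-led cells and 401, 512, 252 and 247 in the Mzb1-led cells. The nuclear members were at 270, 306, 177 and 166 against 458, 677, 354 and 303. The cluster with the lowest UMI counts of all (1048 cells, median 3898 UMIs, no marker) had an mt- share of 3.18% and a ratio of mt- to nuclear UMIs of 0.809. Cells with at least 4346 UMIs were also thinned to that number, which kept 502 of the 622 Socs2-led and 1241 of the 1290 Mzb1-led cells and left out the shallower ones. The mean mt- shares were then 4.43%, 4.87%, 4.41% and 4.70% in the Socs2-led and 3.18%, 3.01%, 2.95% and 3.16% in the Mzb1-led cells. The mean nuclear shares were 2.96%, 3.05%, 3.46% and 3.18% against 3.57%, 3.86%, 3.97% and 3.73%, and neither pair overlapped in the cells kept. A list of cell-cycle genes, added after the values were seen, was at 4358, 4329, 4316 and 4888 CPM in the Socs2-led cells and at 4981, 5525, 4775 and 5131 CPM in the Mzb1-led cells. Across the 78 nuclear members with an annotated transcript, the fold change correlated with log2 transcript length at Pearson r = -0.39, against 0.30 across 3354 other panel genes. Genes are not independent, and this is a description.

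**Figure D3:**
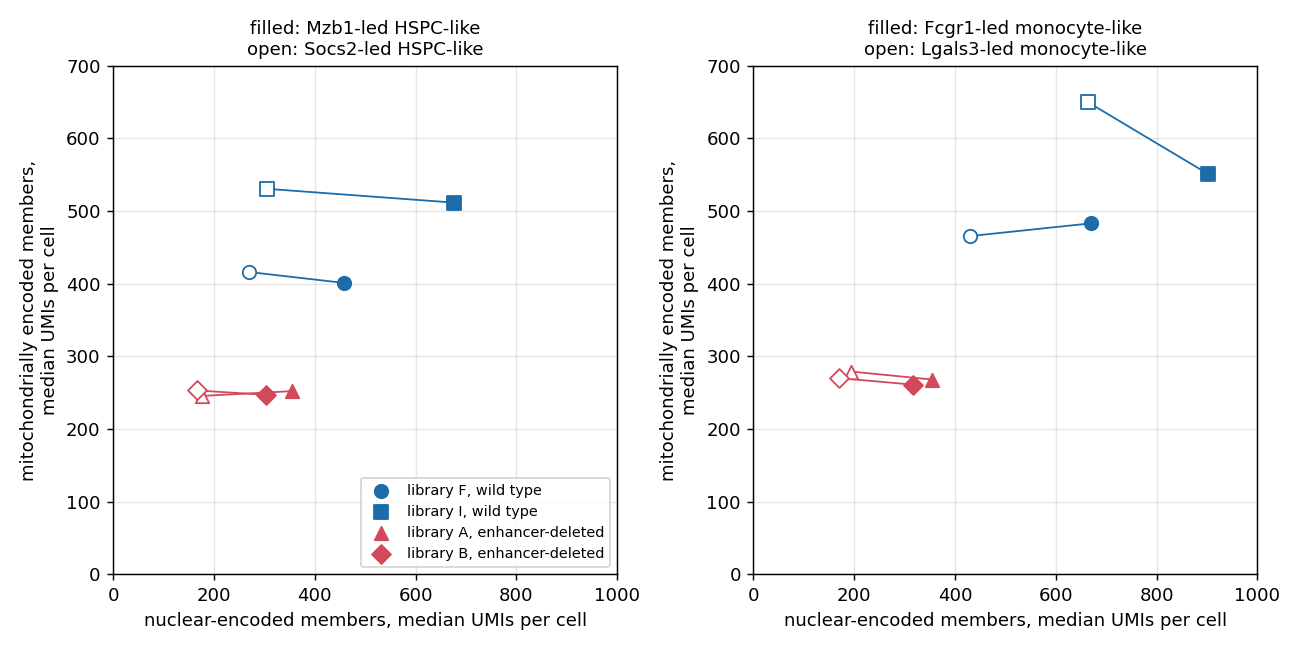
Median UMIs per cell from the nuclear members (x) and the mt- members (y) in each library, for the HSPC-like states (left) and the Fcgr1-led and Lgals3-led monocyte-like states (right); a line joins the states of 1 library, blue for wild type and red for enhancer-deleted. Nuclear UMIs fell in all 4 libraries on both sides, while mt- UMIs differed by less within each library.

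A similar rise of the mt- genes was seen in monocyte-like cells, in a contrast that shares no cells with the first and was added after the levels had been seen. Lgals3-led cells had mt- shares of 3.79%, 3.62%, 4.31% and 4.59% in libraries F, I, A and B against 2.79%, 2.47%, 3.12% and 3.21% in Fcgr1-led cells, higher within every library. The nuclear shares of the Lgals3-led cells were 3.46%, 3.86%, 3.41% and 3.25% against 3.94%, 4.04%, 4.12% and 3.82%, lower within every library. Over the UMIs of genes other than ribosomal protein and mt- genes they were 6.11%, 6.49%, 6.23% and 5.74% against 6.12%, 6.12%, 6.67% and 5.92%. On that scale the states overlapped, and library I was higher in the Lgals3-led cells. All 10 mt- genes rose (median log2 fold change 0.62, range 0.43 to 0.70). Of the 79 nuclear members 19 rose and 28 fell, together near the 60.2% of all genes tested that passed (31.0% higher, 29.2% lower). Uqcrc2 went from 238, 294, 255 and 309 to 119, 112, 143 and 131 CPM (-0.94, SE 0.09, adjusted p 1.11e-10 by edgeR), Uqcrc1 and Atp5b each fell by 0.89 (SE 0.08 and 0.09), and Ndufa9 fell by 0.83 (SE 0.10). Cox7a2l rose from 320, 273, 376 and 390 to 488, 395, 636 and 637 CPM (0.82, SE 0.08, adjusted p 7.17e-10), with no overlap, and Atp5g2 and Atp5e rose by 0.40 (SE 0.06) and 0.37 (SE 0.06). Of the 40 nuclear members that fell in Socs2-led cells, 27 also fell here, 67.5% of the first list and 96.4% of the 28 in the second. Of the 20 that rose, 14 also rose, 70% of the first and 73.7% of the 19 in the second, and 1 member passed in opposite directions. The same overlap over all genes, of which 68.0% and 60.2% passed in these contrasts, was not counted. Both contrasts use the same libraries, so these shares are a description. These cells too had fewer UMIs (library medians 12180, 17038, 6106 and 5589 against 17049, 21971, 8556 and 8272). They had a larger ribosomal protein share (39.6%, 37.0%, 40.9% and 38.8% against 32.9%, 31.6%, 35.1% and 32.4%), and the part of either was not tested.

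The other states were set against the Mzb1-led HSPC-like cells, which all these contrasts share. The F13a1-led cluster had all 10 mt- genes higher (median 0.38), with 22 nuclear members higher and 34 lower, beside 67.3% of all genes; Ndufa9 fell by 1.39 and Sdha rose by 0.65. In the Lgals3-led cells the counts were 10 mt- genes higher, 30 nuclear members higher and 24 lower, beside 66.9% of all genes. The Mcpt8-led and Kpna2-led clusters, the second led by mitotic genes, had 8 and 4 mt- genes lower and none higher (medians -0.22 and -0.15), with 11 and 19 nuclear members higher and 12 and 5 lower, beside 47.8% and 41.3% of all genes. In the Ly6c2-led monocyte-like cells 2 mt- genes were lower and 30 nuclear members were higher and 10 lower, beside 59.9% of all genes. In the Fcgr1-led monocyte-like cells no mt- gene passed by edgeR (1 at an unadjusted p under 0.05), while 24 nuclear members were higher and 12 lower, beside 59.0% of all genes. Ndufa4, a complex IV subunit with an older complex I name, by which it is counted with complex I here, was lower than in the Mzb1-led cells in all 7 of these contrasts, by 0.16 to 0.71 on the log2 scale. It was at 1482, 1666, 1657 and 1385 CPM in the Mzb1-led cells and at 911, 960, 1118 and 852 CPM in the Fcgr1-led cells, with no overlap.

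In the wild-type libraries the neutrophil-like cells could be compared as well. There 9 of the 10 mt- genes were higher than in the Mzb1-led HSPC-like cells (median 0.37), and 31 nuclear members were higher and 20 lower, beside 66.0% of all genes tested (31.0% higher, 35.0% lower). As a share of panel UMIs the nuclear members were at 3.32% and 3.53% there, below the Mzb1-led cells of the same libraries. The mt-Co1 gene was at 4140 and 4014 CPM in the Mzb1-led cells and at 5304 and 5106 CPM in the neutrophil-like cells (0.52, SE 0.05, adjusted p 1.04e-08 by edgeR). Sdhb fell from 339 and 373 to 174 and 181 CPM (-0.83, SE 0.07). The assembly factors Ndufaf2 and Ndufaf4 fell by 0.66 (SE 0.09) and 0.75 (SE 0.10), whereas the assembly factor Ndufaf3 rose from 42.7 and 43.2 to 69.7 and 71.2 CPM (0.89, SE 0.13). The large complex III proteins that fell in the Socs2-led cells did not pass here: of Uqcrc1, Uqcrc2 and Uqcrfs1 none did, with log2 fold changes between -0.14 and -0.06. In the Car1-led cluster 9 mt- genes were higher (median 0.25), with 11 nuclear members higher and 13 lower beside 36.5% of all genes. In the Cpa3-led cluster no mt- gene passed by edgeR (0 at an unadjusted p under 0.05), with 16 nuclear members higher and 2 lower beside 30.7%. Cox6b2 rose from 58.2 and 46.8 CPM in the Mzb1-led cells to 103 and 96.9 CPM in the Car1-led cluster (0.96, SE 0.11). With a minimum of 30 cells per library, it was at 227 and 146 CPM in the globin-led erythroid-like cells (2.35, SE 0.13), where 29 nuclear and 9 mt- members were higher and 11 nuclear members lower beside 52.1% of all genes. These calls use TMM scaling. As a share of panel UMIs the nuclear members were lower there, at 3.16% and 2.55% against 3.62% and 3.89% in the Mzb1-led cells, and the mt- members were at 3.19% and 2.83% against 3.08% and 2.95%.

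Few differences in the members were called over all cells after loss of the enhancer. The test had little power for small changes. In simulated data it recovered 3.5% of genes changed by slightly more than the 1.21-fold of Ndufaf3 below, and 80.5% at a larger change. A gene or list without a call between genotypes may therefore still differ by a small amount. Of 3622 genes tested, 8.86% passed between genotypes, 2.76% with a higher and 6.1% with a lower level after enhancer loss. By edgeR 1 of the 79 nuclear members and none of the 10 mt- genes passed (11 and 0 at an unadjusted p under 0.05). By DESeq2's Wald test 8 and 0 did, beside 20.3% of all genes. The member that passed was Ndufaf3, a complex I assembly factor, at 56.5 and 58.7 CPM in wild-type and 47.2 and 51.6 CPM in enhancer-deleted libraries (log2 fold change -0.27, SE 0.06, adjusted p 0.0487). The groups did not overlap, and the call was lost in 6 of 13 alternatives, among them each fit that left out 1 library (adjusted p 0.0885 to 0.188). The mt- genes other than mt-Nd3 had log2 fold changes between -0.05 and 0.05. The mt-Co1 gene, for example, was at 4540 and 4326 against 4658 and 4510 CPM, with overlapping ranges. The mt-Nd3 gene was at 203 and 277 CPM in wild-type and 213 and 154 CPM in enhancer-deleted libraries (-0.43, SE 0.22, adjusted p 0.301).

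Library B stood low for several members with short transcripts. Ndufa1 was at 120, 126, 106 and 72.6 CPM in libraries F, I, A and B, and Cox6b2 was at 71.5, 56.5, 47.0 and 32.9 CPM. Neither passed between genotypes, with log2 fold changes of -0.51 (SE 0.19, adjusted p 0.186) and -0.73 (SE 0.22, adjusted p 0.12). Across 78 nuclear members the log2 ratio of library B to library A correlated with log2 transcript length at r = 0.51, and that of F to I at -0.15. Across 3395 other panel genes these correlations were 0.15 and -0.13. The values describe these libraries and not the genotypes.

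Other energy genes were taken from lists that hold no member. None of the respiratory carriers (0 of 17), assembly factors (0 of 24) or pyruvate and TCA cycle genes (0 of 20) passed between genotypes. Nor did any gene of mitochondrial DNA copy and expression (0 of 7), mitochondrial ribosomal proteins (0 of 73), import (0 of 26) or regulation of mitochondrial genes (0 of 6). Over all genes tested, 8.86% passed between genotypes, 6.1% with a lower level. Glycolysis had 2 of 14 lower. Gpi1, the glucose phosphate isomerase, was at 400 and 380 against 253 and 260 CPM (-0.66, SE 0.07, adjusted p 0.0095 by edgeR), and Ldhb, a lactate dehydrogenase subunit, at 37.1 and 36.2 against 22.2 and 20.98 CPM (-0.82, SE 0.11). Of 91 cytosolic ribosomal protein symbols 3 were lower (Rpl9-ps6, Rpl10-ps3 and Rpl6l), each a near-identical copy of another gene whose reads the counting could have shared, so their values are uncertain. Between the HSPC-like states 68.0% of all genes passed. There, 13 of 20 pyruvate and TCA cycle genes were lower and 4 higher in the Socs2-led cells. Mdh1, the cytosolic malate dehydrogenase, went from 322, 352, 361 and 402 to 95.8, 65.2, 99.8 and 109 CPM (-1.86, SE 0.10). Of the carriers 12 of 17 were lower and 2 higher, of the mitochondrial ribosomal proteins 33 of 73 lower and 16 higher. Of the glycolytic genes 9 of 14 lower and 2 higher, and of the cytosolic ribosomal proteins 78 of 90 higher and none lower. Assembly factors went mostly the other way from the carriers, with 11 of 24 higher and 3 lower, and so did regulators of mitochondrial genes, with 3 of 6 higher and none lower. Import genes were mixed, with 8 of 26 higher and 6 lower, and of the genes of mitochondrial DNA copy and expression 1 of 7 was higher and 4 were lower. Genes of these lists other than the ribosomal proteins could enter the clustering, so their counts between states are a description.

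Within single states, 2 members passed between genotypes over the 8 states that had at least 50 cells in every library. In the Lgals3-led cells Cox7a2l was at 488 and 395 CPM in wild-type and 636 and 637 CPM in enhancer-deleted libraries (0.58, SE 0.14, adjusted p 0.0424 by edgeR), beside 1.22% of all genes. In the Socs2-led cells mt-Nd3 was at 296 and 421 against 271 and 227 CPM (-0.64, SE 0.17, adjusted p 0.0494), beside 1.72% of all genes. The Cox7a2l call was lost in 4 of 9 alternatives (largest adjusted p 0.239, without library I) and the mt-Nd3 call in 7 of 9 (largest 0.762, without library B). In the other 6 states no member passed by edgeR, with 0 to 11 nuclear and 0 to 6 mt- members at an unadjusted p under 0.05. The share of all genes called was 0.338% in the Mzb1-led, 0.113% in the Kpna2-led, 0.789% in the F13a1-led, 0.681% in the Mcpt8-led, 0.227% in the Fcgr1-led and 0.0282% in the Ly6c2-led cells.

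The genotype difference of the mt- genes itself differed between states. In the Fcgr1-led cells mt- members took 2.79% and 2.47% of UMIs in wild-type and 3.12% and 3.21% in enhancer-deleted libraries. The shares were 3.79% and 3.62% against 4.31% and 4.59% in the Lgals3-led cells, and in the F13a1-led cluster 3.65% and 3.51% against 4.20% and 4.34%. The enhancer-deleted libraries also lay above the wild-type ones in the Kpna2-led cluster (2.74% and 2.38% against 2.97% and 2.92%), in the Ly6c2-led cells (2.83% and 2.55% against 3.06% and 2.89%) and, by a margin far below the spread, in the Mcpt8-led cluster (2.73% and 2.34% against 2.74% and 2.80%). Of the 8 states tested, the genotypes overlapped in both HSPC-like ones (3.08% and 2.95% against 2.92% and 3.10% in the Mzb1-led cells). An interaction term against the Mzb1-led cells passed with a positive sign for 7 mt- genes in the Fcgr1-led cells, 7 in the Lgals3-led cells and 4 in the F13a1-led cluster, beside 5.46%, 9.22% and 3.7% of all genes in either direction. Of all genes 3.34%, 5.52% and 1.48% passed with a positive sign and 2.12%, 3.7% and 2.23% with a negative one. The 3 contrasts share their control cells. No mt- gene passed in the Mcpt8-led, Kpna2-led, Ly6c2-led or Socs2-led cells by edgeR (3, 8, 4 and 0 at an unadjusted p under 0.05; 0.306%, 1.06%, 1.23% and 0.111% of all genes called). The mt-Co3 gene was at 6414 and 5838 CPM in wild-type and 5882 and 6551 CPM in enhancer-deleted Mzb1-led cells. In the Lgals3-led cells it was at 7901 and 7233 against 9060 and 10090 CPM (interaction 0.41, SE 0.08, adjusted p 0.000642). For mt-Co1 the interaction was 0.40 (SE 0.07) in the same cells, 0.34 (SE 0.07) in the Fcgr1-led cells and 0.37 (SE 0.07) in the F13a1-led cluster. Within those 3 states on their own no mt- gene passed between genotypes, with 6 of 10 at an unadjusted p under 0.05 in each.

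**Figure D4:**
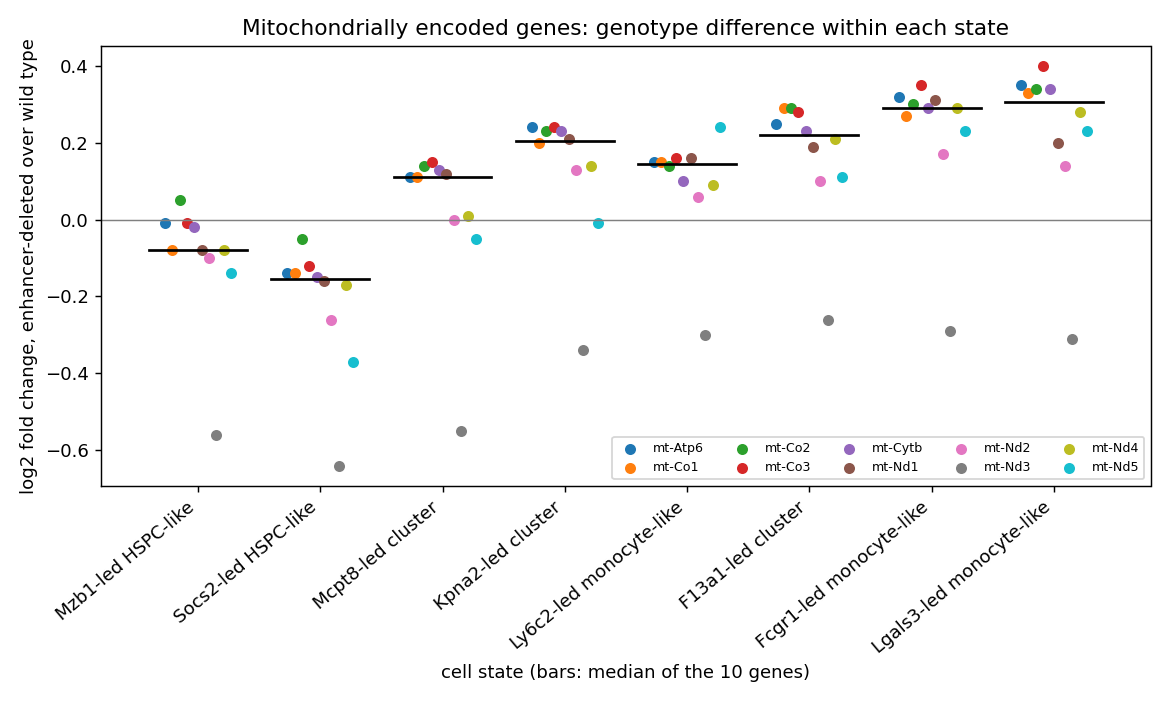
Log2 fold change of each mt- gene in enhancer-deleted over wild-type libraries (y) within each cell state (x); points are genes and bars are medians of the 10 genes. The medians were -0.08 and -0.15 in the HSPC-like states and 0.22, 0.29 and 0.30 in the F13a1-led, Fcgr1-led and Lgals3-led cells, and mt-Nd3 lies below 0 in all 8 states.

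Nuclear members passed in both directions. In the Lgals3-led cells Cox7a2l (0.52, SE 0.09, adjusted p 0.00024 by edgeR) and Sdha were higher and 8 members were lower, among them Atp5f1 (-0.37, SE 0.09), Ndufa8 (-0.43, SE 0.11), Ndufb10 (-0.41, SE 0.11) and Cox7a2 (-0.34, SE 0.09). In the F13a1-led cluster Sdha was higher (0.60, SE 0.16) and Atp5f1, Ndufv2 and Atp5c1 were lower (-0.51, -0.47 and -0.39), and in the Fcgr1-led cells Cox7a2l and Atp5g2 were higher. Over all 7 contrasts there were 34 calls among the 89 members, a member counting once in each contrast where it passed. Beside them there were 757 calls over all genes, with 3590 genes tested in each contrast. These calls rest on libraries A and B. Most of them, of members and of all genes alike, were lost without library A and without library B. More calls, of members and of all genes alike, were made without library F. With the libraries thinned to equal mean UMIs per cell, 18 mt- calls were made over the 7 contrasts, as many as without thinning, while nuclear calls went from 5 higher and 11 lower to 4 and 7 and calls over all genes from 757 to 540. With clusters at a resolution of 0.5 there were 8 mt- calls, and nuclear calls were 3 higher and 5 lower, beside 549 calls over all genes. That fit held fewer than 7 contrasts, because fewer clusters had at least 50 cells in every library. Its counts can therefore not be set directly against the main ones.

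Across the 44 sums of a library and a state with at least 50 cells, centred within each library, the mt- genes followed one another closely. The correlation of each with the summed level of the other 9 ran from 0.992 (mt-Co3 and mt-Co2) and 0.991 (mt-Nd4) down to 0.775 (mt-Nd5), with mt-Nd3 at 0.882 and mt-Nd1 at 0.952. Nuclear members were less alike. Cox5a (r = 0.95), Ndufb6 (0.944) and Atp5o (0.929) were closest to the sum of the other nuclear members, and Cox6b2 (-0.582), Atp5e (-0.685) and Cox7a2l (-0.752) were farthest from it. Those 3 tended to be low in the sums where the other nuclear members were high. All genes of a sum share its cells and depth, so these correlations are descriptions.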

How the data were processed

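The deposited table holds UMI counts, per the file's whole-number values, for 3624 genes and 9960 cells of 4 libraries. The mm10 build, Seurat 2.3.4 and Cell Ranger 2.0.2 are named in the submitters' processing notes; the panel of genes and any cell filter are not given in the sources used here. The table carries no barcodes, so cells shared between libraries could not be counted, and its library letters are not tied to the labelled sample numbers; genotype was taken from the deposited grouping table. Library I and library B carried Xist, 1 of each genotype. The members, gene lists, marker lists and roles were chosen with earlier results of these data known.

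Cells were scaled to 10000 UMIs, and 30 principal components of 1000 variable genes, chosen without members and ribosomal protein genes, were clustered with 15 neighbours (scanpy 1.11.5, Leiden resolution 1.0). A cluster took a marker name when at least 3 markers of 1 cell type were detected in at least 10% of its cells and were 2-fold higher in its summed counts than in all other cells. At least 1 marker had to be among its 10 leading genes. No other type that met this could have as many markers, and none could have more among the leading genes. Keeping each cluster as a state was decided after levels were seen. The Car1-led cluster met that rule for erythroid cells and is called by its leading gene because it carried mast-cell genes. A doublet caller marked 9 cells (0.0904%), which is too few to have worked, so no doublets were removed and an alternative left out 100 cells of over 2 times the median UMIs of their library and cluster. Counts were summed by library and state (at least 50 cells) and tested with edgeR 4.0.16 (R 4.3.3; TMM, filterByExpr, quasi-likelihood, Benjamini-Hochberg over all genes tested, threshold 0.05); state contrasts had library as a block, and DESeq2 1.42.0 was an alternative. CPM values are UMI counts divided by the panel total of the library, or of the library and state, times 1000000. The scripts were tested on simulated data with a smaller and a larger fold change. The genotype test over all cells recovered 3.5% and 80.5% of the changed genes. Within the Mzb1-led cells it recovered 0% and 80.5%. The genotype-by-state term, for the Lgals3-led against the Mzb1-led cells, recovered 0% and 35%. Missing genotype calls therefore do not show that small changes were absent. Each group holds 2 libraries, which limits the precision of genotype tests. Genes named are all mt- members, the members of highest and lowest level per complex, and up to 5 rises and 5 falls of smallest p per contrast, with some others (among them Ndufa1, Ndufa2, Ndufa7, Sdhc, Uqcrfs1 and Cox5a) chosen after their values were seen. Promoters are from RefSeq and transcript lengths from GENCODE; motifs were chosen after the counts had been read. 1 member counted in the totals is not reported by itself here.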

Additional observations from a re-analysis of the deposited data

Results flagged for a closer look

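The difference between genotypes differed between cell states for the following members, by the interaction term of edgeR's fit against the Mzb1-led HSPC-like cells (log2 scale; positive values mean a higher enhancer-deleted level relative to wild type than in the Mzb1-led cells). In the F13a1-led cluster the terms were 0.37 for mt-Co1, 0.30 for mt-Co3, 0.60 for Sdha, 0.28 for mt-Nd1 and 0.29 for mt-Nd4, and -0.51 for Atp5f1, -0.47 for Ndufv2 and -0.39 for Atp5c1. In the Fcgr1-led monocyte-like cells they were 0.38 for mt-Nd1, 0.34 for mt-Co1, 0.36 for mt-Co3, 0.36 for mt-Nd4 and 0.33 for mt-Atp6. In the Lgals3-led monocyte-like cells they were 0.52 for Cox7a2l, 0.40 for mt-Co1, 0.41 for mt-Co3, 0.37 for mt-Atp6 and 0.36 for mt-Nd4, and -0.37 for Atp5f1, -0.43 for Ndufa8, -0.34 for Cox7a2, -0.41 for Ndufb10 and -0.27 for Cox5a. All 3 sets share the same Mzb1-led cells. Of these 23 terms, each missed the threshold when library A was left out, and all but mt-Co1 in the Lgals3-led cells when library B was left out.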

How the results depend on the processing

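The state contrasts held their counts. With the Socs2-led against the Mzb1-led cells, each alternative that kept these clusters gave 10 mt- genes higher. Leaving out 1 library gave 17 to 21 nuclear members higher and 36 to 39 lower. For the Lgals3-led against the Fcgr1-led cells these counts were 10, 13 to 19 and 21 to 28. The alternative with the lower clustering resolution had a mixed cluster in place of the Socs2-led cells. It also gave 10 mt- genes higher. Of the cells in that mixed cluster, 38.76% were Socs2-led and 39.13% F13a1-led. That alternative therefore does not test the Socs2-led cells by themselves. Calls of members over the 7 contrasts against the Mzb1-led cells, a member counting once in each contrast, were 337. They were 292 to 329 leaving out 1 library and 320 to 347 under the other alternatives run. With levels scaled to the UMIs of genes other than ribosomal protein and mt- genes, the ratio of summed nuclear levels moved from 0.825 to 0.943 (Socs2-led to Mzb1-led) and from 0.879 to 0.991 (Lgals3-led to Fcgr1-led). That of mt- levels moved from 1.52 to 1.74 and from 1.41 to 1.59, and leaving out 1 library gave 0.813 to 0.837, 0.853 to 0.896, 1.48 to 1.54 and 1.39 to 1.43.

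The genotype counts did not hold. Over all cells 1 member passed, against 2 with a sex term, 0 without the low-UMI cluster and 8 by DESeq2 (6 higher and 2 lower). Each fit that left out 1 library lost the Ndufaf3 call, and any member then called was another one. Over all genes 321 passed by edgeR, 734 by DESeq2, 480 with the sex term, and 66 and 112 without libraries A and B. Higher calls were 31.2% of edgeR's and 41.8% of DESeq2's. Within states 2 members passed, and 1 at resolution 0.5, where fewer states had at least 50 cells in every library. With the states unchanged, 1 passed with DESeq2 size factors, 1 scaled without ribosomal protein and mt- genes and 1 with no filter. The count was 0 thinned and 0 without cells of high UMIs. Leaving out 1 library moved the count within states in both directions, as it did the calls over all genes. Of the genotype-by-state terms 34 passed, against 16 at resolution 0.5 and 1 to 73 leaving out 1 library. The mt- terms of the F13a1-led cluster were 4, against 2 with DESeq2 size factors and 0 to 7 leaving out 1 library, and those of the Fcgr1-led and Lgals3-led cells 7 each, against 0 to 9 and 0 to 8. Of 144 named results, 27 missed the threshold under at least 1 alternative and none changed sign. Causes were not tested. No paired analysis was possible because the library letters carry no replicate number; the sex term, from Xist, joins F with A and I with B. A fit without called doublets was not run. Each genotype comparison rests on 2 libraries a group.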
